A study of Drosophila melanogaster with 4 samples.

Results

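The genes btd (buttonhead, Dmel_CG12653) and Sp1 (Dmel_CG1343) are neighbouring Sp-family zinc finger genes on the X chromosome of Drosophila melanogaster. These 2 genes, of 17872 in the RefSeq gene table, are described through a window of 125001 bp on X from 9555000 to 9680000 in the coordinates of FlyBase release 5. The window was chosen from a map of the histone mark H3K27me2 in these samples, so its coverage is given as a description with no test. Of the enriched regions in each list, 2 of 12968 in replicate 1, 2 of 11483 in replicate 2 and 2 of 17184 in the authors' combined list overlap the window by at least 1 bp.

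The series comprises 2 ChIP samples made with the H3K27me2 antibody Ab24684 and 2 inputs, all from whole wild-type embryos of the Oregon-R strain aged 14 to 16 h. No treatment or mutant was included, and every cell type of the embryo was pooled in each sample. A list of enriched regions exists for either ChIP sample and another, the combined list, for the replicates as a set, whereas no region list of an input was analysed here. The lists hold no read counts, so the depth is unknown, and sequence without a region is called uncalled rather than unmarked.

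In background terms, btd is a head gap gene needed for anterior head segments, and Sp1 is needed for the growth of the legs. Both encode transcription factors with C2H2 zinc fingers, and together they specify the ventral appendages. Polycomb repressive complex 2 methylates a lysine in the tail of histone H3. The dimethylated form is widespread in fly chromatin, whereas the trimethylated form is concentrated over genes held silent by Polycomb proteins. The trimethylated and acetylated forms were not analysed here.

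The window given for btd and Sp1 was almost free of H3K27me2 regions, and the few that were called lay at its ends. Its placement over the genes was not checked, since no release 5 annotation was used here. Replicate 1 had 2481 bp of the window in regions, replicate 2 had 3001 bp and the combined list had 5898 bp. As shares of the window these are 1.98%, 2.40% and 4.72%, with 2.19% ± 0.29 over the replicates (SD, n = 2). Both replicates were low, and the combined list, which covers more of X than either, was low too. That list stands for the same replicates as a set and is not a further replicate.

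All regions of the window can be given one by one. In replicate 1, both lay at the left end, from 9553125 to 9555635 (2511 bp, of which 636 bp were inside) and from 9556056 to 9557900 (1845 bp). Their scores, values the authors attached to each region on a scale the files do not name, stood at percentiles 90.9 and 22.7 of the list. Replicate 2 had 1 region at the left end from 9555850 to 9557462 (1613 bp, percentile 54.6) and 1 at the right end from 9677073 to 9678460 (1388 bp, percentile 75.3). The combined list had the wider regions from 9553108 to 9557888 (4781 bp, percentile 83.1) and from 9676992 to 9680356 (3365 bp, percentile 80.7). Thus the left end was called in both replicates, and the right end inside the window was called in replicate 2 but not in replicate 1.

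Just outside the window, replicate 1 had its nearest region 2859 bp to the right, from 9682859 to 9684871, and its next one to the left 11163 bp away. In replicate 2, the nearest region on the left lay 140 bp away, from 9553227 to 9554860. On the right side its nearest region was 24393 bp away, from 9704393 to 9707266, and had a score at percentile 96.3 of the list. That region had a counterpart in replicate 1 from 9704730 to 9706933, at percentile 80.0.

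**Figure D1:**
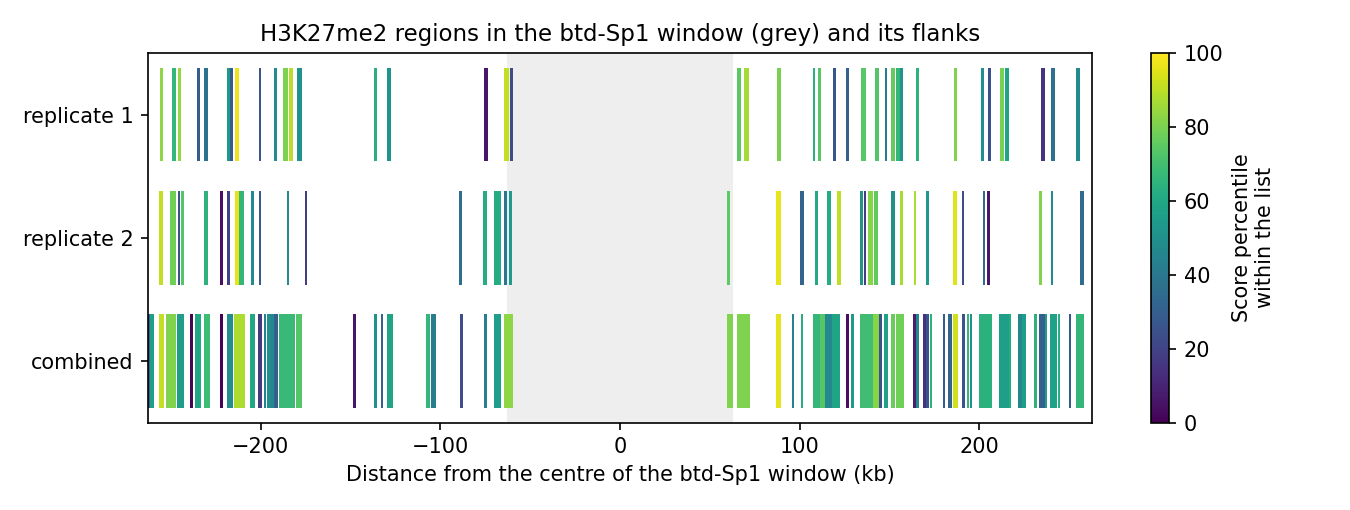
H3K27me2 regions of replicate 1, replicate 2 and the authors' combined list (rows), drawn to scale against the distance in kb from the centre of the btd-Sp1 window. The window is grey and the flanks reach 200 kb on each side. Bar colour is the percentile of the region's score within its own list, and regions touch the grey window only at its ends.

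Between these end regions lay a single uncalled stretch that took up 95.3% of the window. No list had a region from 9557901 to 9676991, a length of 119091 bp. The window begins 2901 bp before this stretch and ends 3009 bp after it, so its low share and the position of its regions depend on where it was drawn. Taken alone, the stretch was 124958 bp long in replicate 1, 119610 bp in replicate 2 and 119103 bp in the combined list. The median uncalled stretch on X was 3201.5 bp, 3652 bp and 1481 bp in the same lists. The left edge was placed within 438 bp by both replicates, and the combined list differed from replicate 1 by only 12 bp there. The right edge differed by 5786 bp, since replicate 1 did not call the region at the right end of the window.

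Among uncalled stretches of X with no region in any list, this one was the second longest of 2776, and it ranked 5 of 15264 on the 5 major arms. Its rank was lower in the sparser lists of single samples. On X it ranked 4 of 2024 in replicate 1 and 12 of 1837 in replicate 2, against 2 of 2823 in the combined list. A stretch of this length was therefore rarer where more of the chromosome had been called.

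The next comparison set the window against its flanks, the 200 kb on each side. In replicate 1, 16.5% of the left flank and 21.6% of the right flank lay in regions. The shares were 16.9% and 18.3% for replicate 2, and 40.3% and 50.8% for the combined list. Both flanks lay above the window in every list, by more than the spread between replicates. The window minus the mean of its flanks was -16.1 percentage points ± 1.35 (SD, n = 2). With 2 replicates, a two-sided exact sign-flip test cannot go below p = 0.5, and none was run.

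The number of regions differed in the same direction as their covered length. Per 100 kb, the window had 1.60 regions in each list. The flanks together had 9.75 (replicate 1), 9.25 (replicate 2) and 17.3 (combined list), and the whole of X had 9.03, 8.19 and 12.6. The flanks thus had more regions per length than X in every list, whereas their covered share in the replicates (18.3% ± 1.06, SD, n = 2) was below the 21.3% ± 3.00 of X by about the spread between replicates on X. In the combined list the flanks had 45.5% of their sequence in regions, above the 40.7% of X.

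Counted in bins of 1 kb, where a bin is called if regions cover at least 50% of it, 3 of the 125 bins of the window were called in replicate 1, against 23.8% of all bins on X. In replicate 2 the count was 2 of 125, against 19.4% on X, and in the combined list 6 of 125, against 41.4%. In both replicates at once, 1 bin of the window was called, against 14.0% on X, and in either replicate 4 bins were, against 29.2%. Since the window was chosen on this mark, nothing further is read from these counts.

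All windows of the same length along X, placed at every 1 kb, give the scale of these values. The median window had 22.6% of its sequence in regions of replicate 1, 18.05% in those of replicate 2 and 40.2% in those of the combined list. Of 22298 windows, 163 (0.73%) had a lower share than the btd-Sp1 window in replicate 1. In replicate 2 there were 431 such windows (1.93%), and the combined list had 167 (0.75%). Windows overlap their neighbours, so these counts stand for few separate places. Windows lower in both replicates at once numbered 138 and fell into 8 places, of which 1 was the btd-Sp1 locus itself and 7 lay elsewhere on X. Some windows had no region at all, namely 37 for replicate 1, 104 for replicate 2 and 9 for the combined list. The locus was therefore near the low end of X but not its lowest point.

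**Figure D2:**
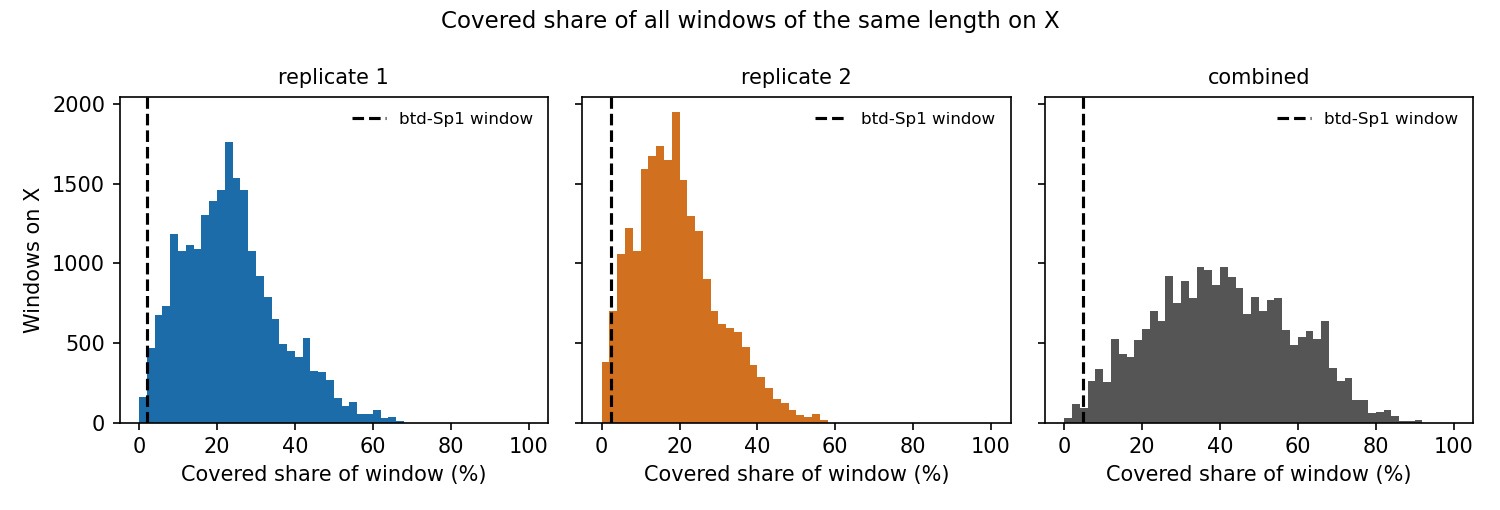
Histograms of the covered share (%, in steps of 2) of all 22298 windows of 125001 bp on X, 1 panel for each list, with the number of windows on the vertical axis. The dashed line marks the btd-Sp1 window at 1.98%, 2.40% and 4.72%, at the left end of each histogram.

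Sequence beside the uncalled stretch was not evenly covered. In the 10 kb directly to its left, 43.6% lay in regions of replicate 1, 64.8% in regions of replicate 2 and 81.6% in the combined list. In the 10 kb to its right the shares were 23.9%, 13.9% and 75.0%. A stretch ends where a region begins, so part of this coverage follows from how the edges were set. Between 10 and 25 kb the replicates had 13.1% ± 1.98 on the left and 8.58% ± 12.1 on the right (SD, n = 2). Further left, coverage fell to 3.43% ± 4.85 between 25 and 50 kb and 4.08% ± 5.78 between 50 and 100 kb, before reaching 25.2% ± 0.28 between 100 and 200 kb (SD, n = 2). To the right it was 18.7% ± 6.08 between 25 and 50 kb, 34.5% ± 1.33 between 50 and 100 kb and 15.4% ± 2.04 beyond. Against its own share of X, each replicate was higher on the right between 50 and 100 kb and lower on the left between 25 and 100 kb. In the combined list the sides were alike between 25 and 50 kb (27.4% left, 28.6% right). They differed there between 50 and 100 kb (16.1% left, 71.5% right).

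**Figure D3:**
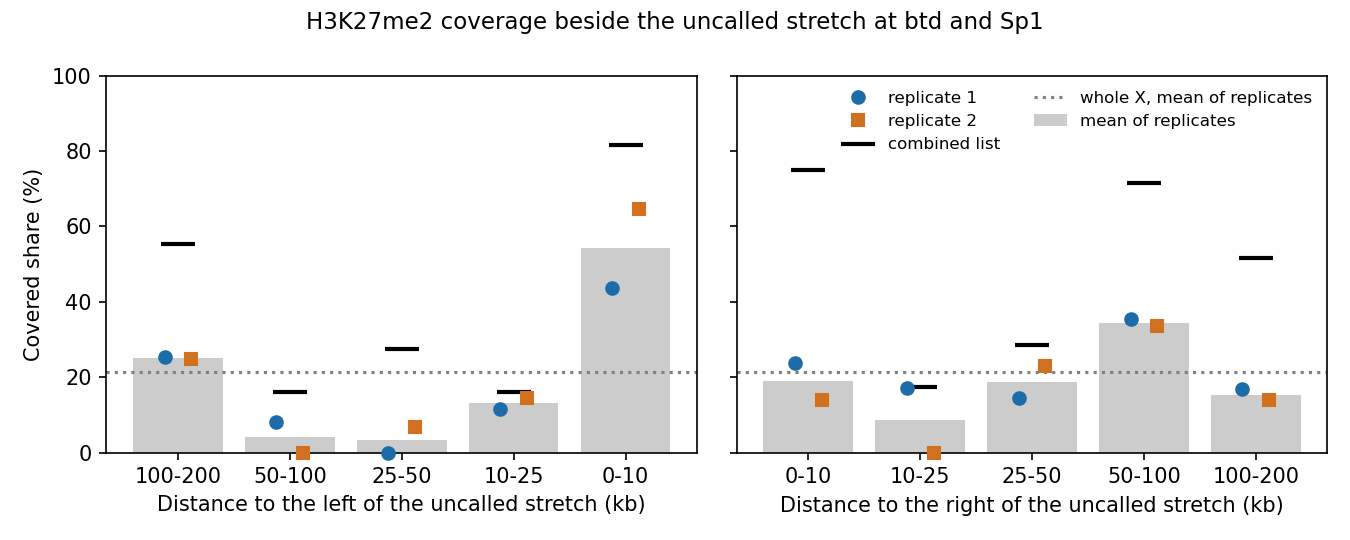
Covered share (%) in bands of distance (kb) to the left and to the right of the uncalled stretch at btd and Sp1. Grey bars are the mean of the replicates, symbols the single replicates, black dashes the combined list, and the dotted line the mean covered share of the whole X (21.3%). The mean of the replicates is high in the first 10 kb on the left and low from 25 to 100 kb on that side. From 10 to 25 kb it is below the dotted line on both sides.

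The called sequence on the left formed a short block between 2 sparse stretches. From 9541450 to 9557900, over 16451 bp, replicate 1 had 3 regions covering 37.1%, replicate 2 had 4 covering 52.6% and the combined list had 3 covering 64.2%. In these lists, 74.8%, 92.0% and 74.1% of all windows of 16451 bp on X were lower, so such coverage was not rare on X. Left of this block, replicate 2 had a single region as far back as 9443391, and its longest uncalled stretch in the left flank ran from 9443391 to 9528150 (84760 bp). Replicate 1 placed its longest one from 9489901 to 9542085 (52185 bp), so the sparse sequence was cut at different points in the replicates. In the right flank the longest uncalled stretches were 19561 bp in replicate 1 and 27244 bp in replicate 2. Taking the block and both sparse stretches together, from 9443391 to 9676991, regions of replicate 1 covered 4.36% of 233601 bp, those of replicate 2 covered 4.44% and those of the combined list 10.9%. Of all windows of that length on X, 0.76%, 2.01% and 1.84% were lower in the same lists. The ends of the block and of this span were set after the regions had been seen.

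The borders of the stretch at btd and Sp1 were next set beside those of other long uncalled stretches of X. On X, 33 stretches of at least 50 kb had no region in any list, and 4 of them reached 100 kb. In the combined list, the 10 kb on each side of the btd-Sp1 stretch were covered to 78.3% on average, against a median of 46.8% over all 33. Only 1 stretch had more, the longest on X (134.0 kb), with 85.6%, and another, 60489 bp long, was close with 77.8%. In the same list, the next in length, of 117.2 and 105.3 kb, were less covered on both sides than the btd-Sp1 stretch (81.6% left, 75.0% right). They had 77.4% and 34.7% on the left, and 20.2% and 55.1% on the right. With the replicate lists in place of the combined list, the btd-Sp1 stretch had 36.5% against a median of 27.1%, and 8 of the 33 stretches had more. The stretch of 105.3 kb was among those with more (40.4%), and that of 117.2 kb had less (27.6%). Over 50 kb on each side the btd-Sp1 stretch had 16.1% in the replicates, and 18 stretches had more. High coverage beside the stretch was thus seen in the nearest 10 kb of the combined list, was shared by other stretches, and stood out less in the replicates.

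**Figure D4:**
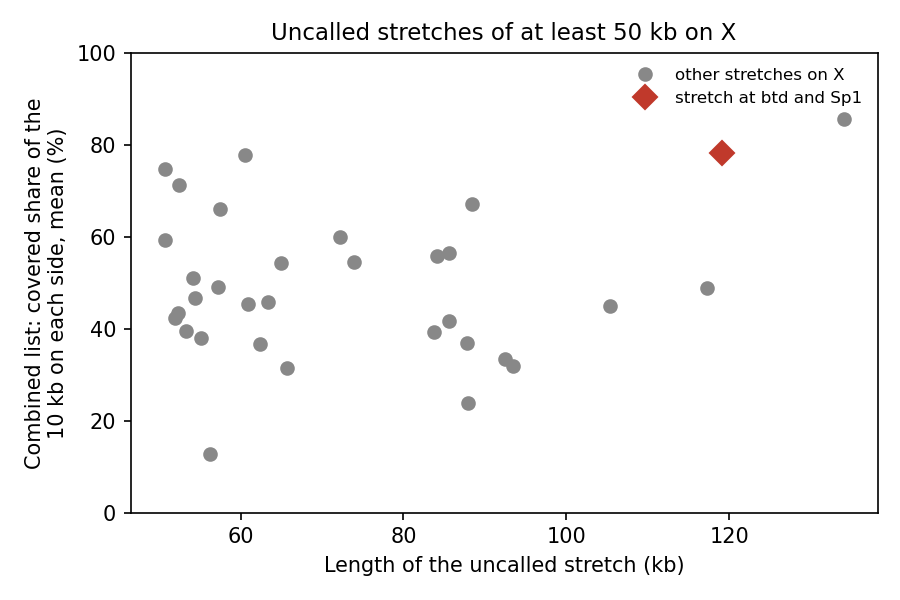
Length (kb) of the 33 uncalled stretches of at least 50 kb on X against the mean covered share (%) of the 10 kb on each side in the authors' combined list, 1 point per stretch. The red diamond, the stretch at btd and Sp1, lies at 119.1 kb and 78.3%, and 1 grey point lies above it.

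Regions of the flanks were narrower and lower in score than those of X by their medians. The flanks had a median width of 1942 bp (replicate 1) and 1706 bp (replicate 2), against 2051 and 1950.5 bp on X. The median score stood at percentile 62.7 of the list in replicate 1 and 54.3 in replicate 2, where regions on X as a whole had medians at percentiles 68.0 and 73.9. The replicates shared less sequence here than over X. The Jaccard index, the length called in both divided by the length called in either, was 0.318 in the left flank, 0.239 in the right flank and 0.473 over X. Within the window it was 0.345, from only 4075 bp called in either replicate. The combined list also called sequence found in neither replicate, namely 15.9% of the left flank and 19.4% of the right flank, against 1.47% of the window and 12.2% of X. These shares of length also depend on how much of each area was called. Of the sequence called in the combined list, they were 1835 of 5898 bp in the window and 2737015 of 9122282 bp on X. In the flanks they were 31894 of 80576 bp (left) and 38774 of 101583 bp (right).

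Which gene of the locus lies where in the uncalled stretch was not determined, since the gene table used here is of release 6 and the regions are placed on release 5. In gene order, the table has 1 gene between btd and Sp1, the long noncoding RNA lncRNA:CR43498. Beyond btd follow lncRNA:CR44016, lncRNA:CR42657 and nej, which encodes the acetyltransferase CBP, known to acetylate the lysine that carries the mark studied here. Beyond Sp1 follow CG1354, CARPB, a gene related to carbonic anhydrases, and Ser7, a serine protease gene. Whether the stretch extends over any of these neighbours was not tested. The aligner Bowtie is named, but its settings are not stated in the labels or headers, so unmappable sequence and low coverage cannot be told apart.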

How the data were processed

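H3K27me2 ChIP was performed on embryos crosslinked with 1.8% formaldehyde, with antibody for 15 h, per the labels' protocols. Each deposited region carries a score from the authors on a scale not stated in the headers, so scores were compared only as percentiles within a list. Positions are those of FlyBase release 5, per the file headers, counted from 1. The submitters' processing notes list Bowtie 0.12.7. The region caller and the way replicates were pooled are not stated in labels or headers. Nothing states that the ChIP samples are separate collections of embryos, and their spread may be technical.

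Covered share was the union of regions divided by length. Windows were moved along X in steps of 1 kb. Uncalled stretches were the intervals between regions. Interval code, tested on simulated data, used Python 3.11.15, numpy 2.4.6 and pandas 2.3.3, and figures matplotlib 3.10.9. The members, the window and the lists of genes were chosen with earlier results of these data known. Named regions were, by rule, up to the 5 widest and 5 highest scoring of the window, and named genes were the members with the 3 next genes on each side. Planned comparisons of protein and promoter sequences were not run, as no sequence table was used here. Other Sp/KLF genes were not analysed here for want of positions on release 5. Alternatives covered score threshold, merging, flank size, window placement and left-out replicates.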

Additional observations from a re-analysis of the deposited data

How the results depend on the processing

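The window lay below its flanks in all alternatives run. Its covered share (2.19%) was 1.98% to 2.40% with either replicate left out. It was 1.45% ± 1.34 (SD, n = 2) without regions scoring below their list's median, a threshold that removed window sequence in replicate 1 only. It was 2.70% ± 0.54 (SD, n = 2) with regions less than 1 kb apart merged. With settings chosen after seeing the data it was 4.72% in the combined list, 6.06% with the window edges moved outward by 10 kb and 0% with them moved inward by 10 kb. The difference from the flanks (-16.1 points) was -17.1 to -15.2 with a replicate left out, -11.0 with the median-score threshold, -14.1 with flanks of 100 kb, -14.5 against the left and -17.7 against the right flank alone, -40.8 in the combined list, and -11.0 and -18.0 with edges moved outward and inward. The share of windows on X lower than this one (1.33% as the mean of replicates) lay between 0.73% and 1.97% over the alternatives run for it. That share was not computed with the window edges moved outward or inward. The Jaccard index within the window (0.345) fell to 0 with the median-score threshold, which removed the replicate 1 region that replicate 2 shared, and was 0.574 with merging. The median score percentile of its regions (60.9) was 56.8 to 65.0 with a replicate left out, 77.9 with the median-score threshold, 43.8 for regions with at least 50% of their length inside and 43.5 ranked among regions on X. These last values rest on at most 2 regions per list. In replicate 1, the median-score threshold left only the region from 9553125 to 9555635. The rule of at least 50% inside left only the one from 9556056 to 9557900. The SDs over the replicates were then 18.4 and 29.9 (n = 2). No paired analysis was possible because no region list of an input was analysed here, and by their labels each input served the ChIP sample with the other number. Depth is unknown without read counts, which limits what can be said of uncalled sequence.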
